A study of Mus musculus with 2 samples.

Results

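Calcium/calmodulin-dependent protein kinases (CaMKs) were followed in total RNA of mouse dorsal striatum through 10 genes out of 32531 symbols in the count tables. The 10 genes were chosen by gene family, and the family was selected on a measured value, since Camk2a had been seen to be lower in one of the libraries. They are the CaMKII genes Camk2a, Camk2b, Camk2d and Camk2g, the CaMKI genes Camk1 and Camk1d, the CaMKIV gene Camk4, the upstream kinases Camkk1 and Camkk2, and the related pseudokinase gene Camkv. The tissue came from 2 groups of mice with long access to cocaine, which they gave themselves intravenously: an escalating group and a nonescalating group, with 1 library each. All animals carried the Drd1-TRAP transgene of line CP73, in which a bacterial artificial chromosome puts EGFP fused to Rpl10a under control of Drd1, on an FVB/N-Swiss Webster background bred to C57BL/6 for 9 generations or more. The libraries are the input, so RNA of any cell type of the dissected tissue can be in them. They did not hold each cell type alike: microglia markers summed to 391 counts in the escalating library, against 13368 in the nonescalating one. The sources used here do not give the number or age of the animals behind a library.

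CaMKs are serine/threonine kinases that are switched on when calcium-loaded calmodulin binds them. CaMKII assembles from alpha, beta, gamma and delta subunits into large rings, can stay active by phosphorylating itself, and is among the most abundant proteins of forebrain synapses. CaMKK, CaMKI and CaMKIV form a cascade in which CaMKK activates the other kinases, and CaMKIV acts largely in the nucleus, where CREB is a substrate. In striatum these kinases lie downstream of glutamate-driven calcium entry into projection neurons.

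Reads assigned to genes numbered 9548358 in the escalating library, against 9376097 in the nonescalating one. Levels are given as CPM, the usual depth-normalised read count, on library sizes scaled with TMM factors (trimmed mean of M values), and ratios are escalating over nonescalating. As each group has 1 library, differences lack any replicate check and p-values are not printed: each value compares these libraries, and its 95% interval covers counting error only. To be called, a gene needed a ratio of 1.5-fold or more, computed with a pseudocount of 0.5, and an interval without 1. The rule was applied to 12213 genes whose counts in the libraries summed to 50 or more. The libraries stood apart in several ways. Reads in no annotated gene took 28.6% of the listed reads in the escalating library and 18.1% in the nonescalating library, and reads falling in more than 1 gene were 8.06% and 18.9%. The nuclear RNA Malat1 was at 17037 CPM in the escalating library, against 7732 CPM in the nonescalating one. A single feature, AK140265, took 9.66% of assigned reads in the escalating library, against 24.1% in the nonescalating one. Its reads are part of the totals used when scaling to total assigned reads. All 14 microglia markers and all 15 astrocyte markers were called lower in the escalating library. The median log2 ratio over measured genes was 0.02 with TMM scaling and 0.38 with scaling to total assigned reads, and higher genes made up 35.3% and 77.0% of all calls.

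Camk2a was lower in the escalating library, while with TMM scaling most of its relatives were slightly higher. Of the 10 genes, Camk2a and Camk1 were called lower, beside 17.1% of all measured genes called lower. Camkk1 and Camkk2 were called higher, beside 9.33% of all measured genes called higher. As the contrast was used in choosing the family, nothing is read from these shares. The other 6 genes were not called. The median log2 ratio of the 10 genes was 0.33, with a range of -1.21 to 0.74, against 0.02 for all measured genes. In bulk tissue, fewer cells of a type and less RNA per cell cannot be told apart.

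**Figure D1:**
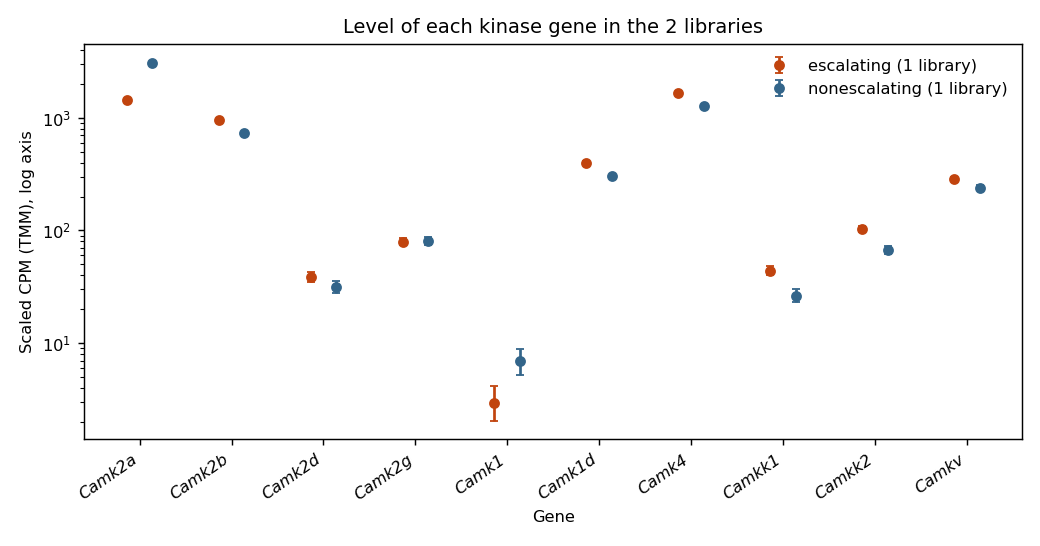
Level of each gene in scaled CPM (log axis) in the escalating (left point, orange) and the nonescalating library (right point, blue), with exact 95% Poisson counting intervals and 1 library per group. Camk2a is at 1445 CPM in the escalating library, against 3087 CPM in the nonescalating one, whereas Camk2b, Camk1d and Camk4 are somewhat higher in the escalating library.

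Among the CaMKII genes, Camk2a encodes the alpha subunit, whose mRNA is known to be carried into dendrites and translated there (mm10, chromosome 18, 60925618 to 60988152, plus strand). It had 15631 counts in the escalating library, against 25544 in the nonescalating one, that is 1445 and 3087 CPM. It was 2.14-fold lower in the escalating library (interval 2.10 to 2.18), and 7.73% of measured genes had a still lower ratio. Camk2b encodes the beta subunit, which binds actin filaments in spines (chromosome 11, 5969644 to 6066362, minus strand). It went the other way, with 10255 counts (948 CPM) in the escalating library, against 6074 (734 CPM) in the nonescalating one, a 1.29-fold higher level (log2 ratio 0.37, 0.32 to 0.41) that stayed under the threshold. Camk2d, the delta gene best known from heart (chromosome 3, 126596302 to 126846326), had 418 and 260 counts and was at 38.6 CPM in the escalating library, against 31.4 CPM in the nonescalating one. Camk2g, the gamma gene (chromosome 14, 20734875 to 20794088), had 862 and 665 counts and was at 79.7 and 80.4 CPM. Its interval, 0.895 to 1.10, included a ratio of 1. Camk2a was thus the CaMKII gene that differed by at least 1.5-fold, and it also held most of the CaMKII reads in both libraries.

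The make-up of CaMKII mRNA within a library does not depend on how libraries are scaled. Camk2a held 57.5% of the reads of the 4 CaMKII genes in the escalating library (56.9 to 58.1, exact binomial), against 78.5% in the nonescalating library (78.0 to 78.9). Camk2b held 37.7% (37.2 to 38.3) in the escalating library, against 18.7% (18.2 to 19.1) in the nonescalating one. Reads of Camk2a outnumbered those of Camk2b 1.52 to 1 in the escalating library (1.49 to 1.56) and 4.21 to 1 in the nonescalating library (4.09 to 4.33), so this ratio was 2.76 times lower in the escalating library. The alpha subunit gene therefore took a smaller share and the beta subunit gene a larger share in the escalating library, whichever scaling is used. Camk2d took 1.54% (1.40 to 1.69) and 0.799% (0.705 to 0.902) of CaMKII reads, and Camk2g 3.17% (2.97 to 3.39) and 2.04% (1.89 to 2.20). Summed over the 4 genes, CaMKII was at 2511 CPM in the escalating library, against 3933 CPM in the nonescalating one. Without Camk2a the sum was 1066 and 846 CPM, so the sign of the CaMKII total was that of Camk2a.

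Against the rest of the family, reads of Camk2a were also fewer per read of each gene in the escalating library, except for Camk1. Among the 9 genes other than Camk2a, Camk2b made up 26.6% of reads in the escalating library, against 26.6% in the nonescalating one, Camk4 46.6% and 46.2%, and Camk1d 11.2% and 10.9%. The intervals of the shares in both libraries overlapped for Camk2b, Camk2d, Camk1d, Camk4 and Camkv. Overlap depends on the number of reads and was not counted over all genes, so nothing is read from it. Camk1 and Camk2g held a smaller share in the escalating library, and Camkk1 and Camkk2 a larger one. Reads of Camk2a per read of Camk4 were 0.869 (0.851 to 0.888) in the escalating library, against 2.42 (2.36 to 2.47) in the nonescalating one. Reads of Camk2b per read of Camk4 were 0.570 (0.556 to 0.584) and 0.575 (0.557 to 0.594).

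**Figure D2:**
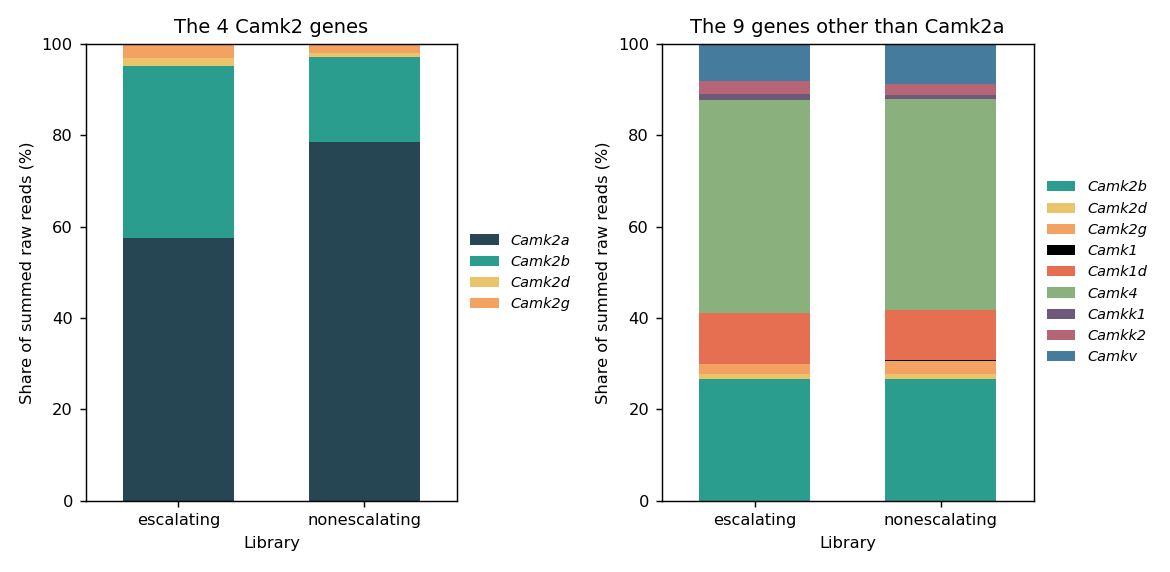
Share of summed raw reads in percent (bars add to 100) in the escalating (left bar) and the nonescalating library (right bar), for the 4 CaMKII genes and for the 9 genes other than Camk2a. Camk2a takes 57.5% and 78.5% of CaMKII reads, while the make-up of the other 9 genes looks nearly alike, with Camk4 at 46.6% and 46.2%.

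The CaMKI genes differed from each other. Camk1, the alpha form of CaMKI (chromosome 6, 113334124 to 113343984, minus strand), had 32 counts in the escalating library, against 57 in the nonescalating one, or 2.96 and 6.89 CPM. It was called 2.33-fold lower in the escalating library (1.49 to 3.71), the widest interval of the 10 genes. In GENCODE M21 its exons share 232 bases with those of Ogg1, a DNA repair gene on the opposite strand, which had 54 counts in the escalating library, against 24 in the nonescalating one; the strand setting of the counting is not given in the sources used here, so the count of Camk1 is uncertain. Camk1d, the delta form (chromosome 2, 5293457 to 5714515), had 4324 and 2491 counts and was at 400 CPM in the escalating library, against 301 CPM in the nonescalating one. At 1.33-fold higher (1.26 to 1.39) it was not called.

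Camk4 encodes CaMKIV, the kinase that phosphorylates CREB in the nucleus (chromosome 18, 32934931 to 33191228). It had 17986 counts in the escalating library, against 10562 in the nonescalating one, or 1662 and 1277 CPM. At 1.30-fold higher (1.27 to 1.33) it was not called. Its exons share 72 bases, 2.21% of its exon bases, with the antisense gene 2310026I22Rik. Reads of these genes within that stretch cannot be told apart if strand was not used. In the escalating library Camk4 had more reads than Camk2a, and in the nonescalating library fewer. Camkv encodes a synaptic protein with a kinase-like fold that lacks kinase activity (chromosome 9, 107935674 to 107949691). It had 3125 and 1987 counts and was at 289 CPM in the escalating library, against 240 CPM in the nonescalating one, 1.20-fold higher (1.14 to 1.27).

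Both genes of the upstream kinases were higher in the escalating library. Camkk1, the alpha form of CaMKK (chromosome 11, 73019008 to 73042073, plus strand), had 476 counts in the escalating library, against 218 in the nonescalating one, or 44.0 and 26.3 CPM, and was 1.67-fold higher (1.42 to 1.97). Camkk2, the beta form, which also activates the energy sensor AMPK (chromosome 5, 122731170 to 122779409, minus strand), had 1106 and 553 counts, or 102 and 66.8 CPM. It was 1.53-fold higher (1.38 to 1.70), just past the threshold. The genes kept nearly the same proportion to each other: Camkk1 held 30.1% (27.8 to 32.4) of CaMKK reads in the escalating library, against 28.3% (25.1 to 31.6) in the nonescalating one. Both CaMKK calls depended on the scaling, since neither reached 1.5-fold when the pan-neuronal markers were set to a median of 0, where their log2 ratios were 0.37 for Camkk1 and 0.24 for Camkk2.

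The promoters of Camkk1 and Camkk2 are shown because these genes were the pair called higher, and that of Camk1 because it was called in the other direction. RefSeq sequences on build GRCm38.p6, which shares its coordinates with mm10, were matched by symbol. Promoters from 250 bases before to 50 bases after the start were kept for 7 of the 10 genes, 8 promoters in all. Camk2a and Camk4 were left out by a rule on genome position, and Camk2g had no promoter entry. The promoters shown are printed 5′ to 3′ on the strand of the gene. Capitals mark the GC box GGGCGG, a binding motif of Sp1, and the CRE half-site TGACG, a motif of CREB, each on either strand (CCGCCC and CGTCA on the other).

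Camkk1, chr11:73018738-73019037, plus strand: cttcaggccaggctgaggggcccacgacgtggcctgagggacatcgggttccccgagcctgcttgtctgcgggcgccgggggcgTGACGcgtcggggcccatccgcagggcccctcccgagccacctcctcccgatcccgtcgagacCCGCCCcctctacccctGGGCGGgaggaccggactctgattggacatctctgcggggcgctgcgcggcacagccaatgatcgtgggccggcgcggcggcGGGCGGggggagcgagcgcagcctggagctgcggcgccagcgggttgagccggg

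Camkk2, chr5:122779361-122779660, minus strand: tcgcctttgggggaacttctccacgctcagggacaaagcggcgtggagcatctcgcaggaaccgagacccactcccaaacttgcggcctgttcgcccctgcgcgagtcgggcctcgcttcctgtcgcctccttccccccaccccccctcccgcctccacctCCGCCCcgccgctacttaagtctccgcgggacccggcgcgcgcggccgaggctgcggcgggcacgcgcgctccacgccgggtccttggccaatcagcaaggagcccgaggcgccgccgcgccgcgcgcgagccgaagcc

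Camk1, chr6:113343873-113344172, minus strand: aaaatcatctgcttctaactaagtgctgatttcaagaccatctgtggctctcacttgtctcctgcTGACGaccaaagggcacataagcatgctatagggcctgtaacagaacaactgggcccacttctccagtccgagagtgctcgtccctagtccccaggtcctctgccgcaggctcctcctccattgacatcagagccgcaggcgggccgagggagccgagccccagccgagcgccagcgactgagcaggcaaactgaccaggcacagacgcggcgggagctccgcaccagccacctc

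The Camkk1 window holds 3 GC boxes and 1 CRE half-site, the Camkk2 window 1 GC box, and the Camk1 window 1 CRE half-site. Over the 8 promoters, which do not include Camk2a, Camk4 or Camk2g, 7 held a GC box and 2 a CRE half-site. Of 32851 promoters of the same length in the table, 35.7% held a GC box and 20.8% a CRE half-site. The GC content was 75.3% for Camkk1, 73.3% for Camkk2 and 60% for Camk1, against a median of 52.7% over all promoters. These matches describe the letters of the window and are not binding sites seen in these data.

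Levels of different genes can be compared per length, here as CPM per kilobase of merged GENCODE exons. Camk4 stood at 510 and Camk2a at 194 in the escalating library, against 392 for Camk4 and 414 for Camk2a in the nonescalating library, so these genes changed places. They were followed in both libraries by Camk2b, with 104 in the escalating library, against 80.5 in the nonescalating one, Camkv with 76.7 and 63.8, and Camk1d with 53.8 and 40.5. Each of these 5 genes lay above 94.9% of 11298 measured genes with a length. Camk2g (12.4 in the escalating, 12.6 in the nonescalating library), Camkk1 (11.8 and 7.07) and Camkk2 (9.36 and 6.12) formed a middle group. Within it Camk2g and Camkk1 could not be told apart by their counting intervals in the escalating library, nor Camkk1 and Camkk2 in the nonescalating library. Camk2d, with 1.72 and 1.40, and Camk1, with 0.495 and 1.15, came last, and their intervals overlapped in the nonescalating library. The order rests on the annotation: per kilobase of the longest coding transcript, Camkk2 (21.0 and 13.8) stood above Camkk1 (12.8 and 7.70). The annotation behind the deposited counts is not given in the sources used here, so these levels per length are approximate.

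**Figure D3:**
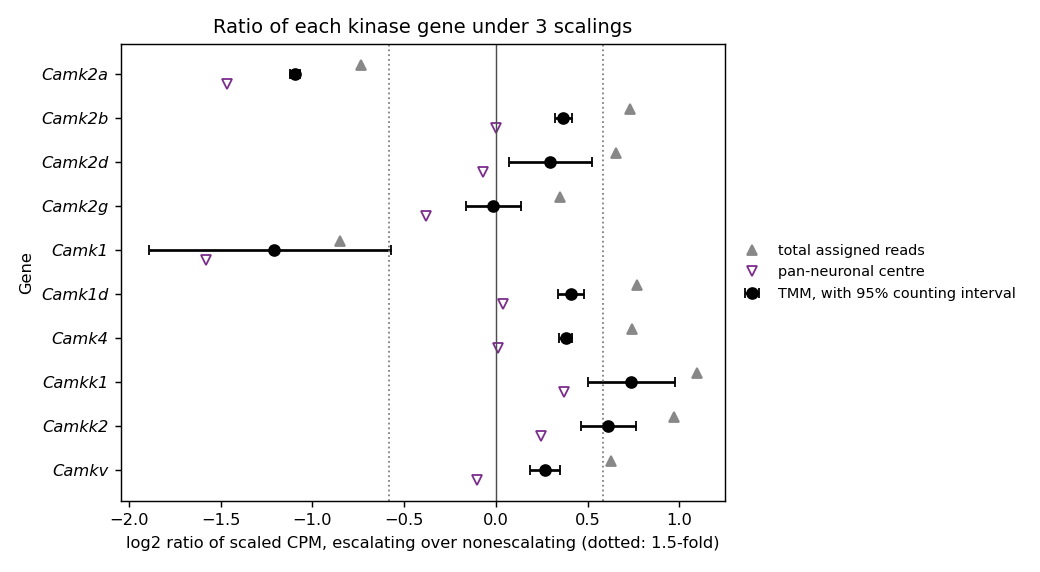
The log2 ratio of each gene, escalating over nonescalating, with TMM scaling and its 95% counting interval (black), with scaling to total assigned reads (grey triangles) and with the median of the pan-neuronal markers set to 0 (open purple triangles); dotted lines mark 1.5-fold. Camk2a and Camk1 lie left of the lower line under all 3 scalings, while Camk2b, Camk1d and Camk4 move between 0.00 and 0.77.

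Scaling decided several calls but not those of Camk2a and Camk1, which were lower under every scaling tried. With total assigned reads the log2 ratio of Camk2a was -0.73, and 7 genes were called higher: Camk2b, Camk2d, Camk1d, Camk4, Camkk1, Camkk2 and Camkv. With the pan-neuronal centre Camk2a was at -1.46, 0 genes were called higher, and Camk2b, Camk1d and Camk4 had log2 ratios of 0.00, 0.04 and 0.01. The ratio of Camk2g was -0.01 with TMM, 0.35 with total reads and -0.38 with the pan-neuronal centre, so it has no direction that holds across scalings.

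Pathway genes outside the family were taken from 9 lists of 103 different genes, of which 97 passed the filter on low counts. Of these, 10 were called higher and 13 lower in the escalating library, beside 9.33% and 17.1% of all measured genes. These shares also stand beside the counts of each list below, and nothing is read from the counts. The median log2 ratio of the 97 genes was 0.04, against 0.02 over all measured genes. With total-read scaling 32 were higher and 5 lower, the lower ones being Arc, Nfatc1, Shank1, Shank3 and Stk17b, and with the pan-neuronal centre 1 was higher and 33 lower. With that centre the median of every list was negative, between -0.78 for the dendritic mRNAs and -0.09 for calcineurin.

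Among genes that encode calmodulin, Calm2 was at 1513 CPM in the escalating library, against 1424 CPM in the nonescalating one, and Calm3 at 431 and 344 CPM. The log2 ratios were 0.09 for Calm2 and 0.33 for Calm3. Neither was called with TMM scaling, and Calm3 was called higher with total reads. Of 6 measured genes in the list of calmodulin and its buffers, 1 was called higher (median 0.21): Nrgn, which encodes the calmodulin-binding protein neurogranin of dendritic spines, at 294 CPM in the escalating library, against 185 CPM in the nonescalating one, 1.59-fold higher (1.495 to 1.69).

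In the list of CaMKII inhibitors, phosphatases and anchors, 1 of 10 measured genes was higher and 1 lower (median 0.05). Camk2n1, which encodes an inhibitor protein that binds active CaMKII, had 7133 counts (659 CPM) in the escalating library, against 9423 (1139 CPM) in the nonescalating one and was 1.73-fold lower (1.68 to 1.78). Reads of Camk2a per read of Camk2n1 were 2.19 (2.13 to 2.25) in the escalating library, against 2.71 (2.65 to 2.78) in the nonescalating one, so this ratio differed less between the libraries than that of Camk2a to Camk2b. Camk2n2, the gene of the second inhibitor, had 61 and 48 counts, and a difference at this depth was not detectable (ratio 0.972, interval 0.655 to 1.45). Cacnb2, a calcium channel subunit that binds CaMKII, was 1.71-fold higher (1.59 to 1.83), with 227 CPM in the escalating library, against 133 CPM in the nonescalating one. Actn2, an actin crosslinker that anchors CaMKII, was at 116 and 79.3 CPM and was not called.

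Of 14 genes of CaMKII and CaMKIV substrates, 1 was higher and 2 lower, with a median of -0.34 that became 0.02 with total reads. Hdac5, a class IIa histone deacetylase that leaves the nucleus when CaMK phosphorylates it, was 1.59-fold lower (1.45 to 1.75), at 73.6 CPM in the escalating library, against 117 CPM in the nonescalating one. Cacng2, the AMPA receptor partner stargazin, was at 33.2 and 51.5 CPM and 1.55-fold lower (1.35 to 1.79). Tiam1, an activator of the GTPase Rac, was at 138 and 91.9 CPM and 1.51-fold higher (1.38 to 1.65). With total reads neither Hdac5 nor Cacng2 was called, nor was Camk2n1.

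Of 13 measured genes in a list of other CaMK-group kinases and the calmodulin-dependent kinase Eef2k, 2 were higher and 3 lower (median 0.17). Camk1g, the gamma form of CaMKI, was 2.42-fold higher (2.01 to 2.91), with 493 counts (45.6 CPM) in the escalating library, against 156 (18.9 CPM) in the nonescalating one. It was the pathway gene still called higher with the pan-neuronal centre. The CaMKI genes Camk1, Camk1d and Camk1g thus had log2 ratios of -1.21, 0.41 and 1.27. Dclk1, a doublecortin-like kinase named here after its value was seen, was at 1591 CPM in the escalating library, against 822 CPM in the nonescalating one, 1.93-fold higher (1.88 to 1.99). The lower genes had few reads: Stk17b, a kinase of the death-associated family, had 28 counts in the escalating library, against 98 in the nonescalating one, and Phkg1, a catalytic subunit of phosphorylase kinase, 22 and 36. Eef2k, the calmodulin-dependent kinase of elongation factor 2, also named after its value was seen, was 1.60-fold lower (1.28 to 2.01) on 142 and 174 counts.

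Downstream of CaMKK, 3 of 11 genes of the AMPK route were higher and 0 lower (median 0.05, and 4 were higher with total reads). Over all measured genes 9.33% were called higher and 17.1% lower. Prkab1 and Prkab2 encode the beta subunits of AMPK, and Strada encodes the pseudokinase partner of the AMPK kinase LKB1. Prkab2 was at 54.8 CPM in the escalating library, against 30.9 CPM in the nonescalating one, 1.77-fold higher (1.53 to 2.06). Strada was at 28.2 and 15.5 CPM, 1.82-fold higher (1.48 to 2.26), and Prkab1 at 14.1 and 8.82 CPM, 1.60-fold higher (1.20 to 2.15). The catalytic subunit genes Prkaa1 and Prkaa2 were not called, with log2 ratios of -0.08 and 0.15, and with the pan-neuronal centre none of the 11 genes was called higher. In the CREB route downstream of CaMKIV, 0 of 8 genes were called in either direction (median -0.13, or 0.23 with total reads). Its widest ratios were those of Crtc2, a CREB coactivator, at 19.9 CPM in the escalating library, against 13.3 CPM in the nonescalating one, of the CREB relative Atf1, at 9.89 and 14.4 CPM, and of the coactivator Crtc1, at 272 and 354 CPM.

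Calcineurin, the calmodulin-activated phosphatase that opposes CaMKs at many substrates, had 2 of 12 measured genes higher and 2 lower (median 0.28). Akap5, which anchors calcineurin at the membrane, was at 882 CPM in the escalating library, against 567 CPM in the nonescalating one, 1.56-fold higher (1.502 to 1.61), and the calcineurin regulator Rcan2 was 1.52-fold higher (1.44 to 1.61). Nfatc1, a transcription factor that calcineurin activates, with 62 and 118 counts, was 2.49-fold lower (1.82 to 3.44), and its relative Nfatc3, named after its value was seen, was 1.52-fold lower (1.29 to 1.80) on 268 and 312 counts. The catalytic subunit gene Ppp3ca, which leads the list in reads, had a log2 ratio of 0.23. Of 14 other calmodulin effectors 1 was lower and 0 higher (median 0.08). That gene, Adcy1, the calmodulin-stimulated adenylyl cyclase, was at 156 CPM in the escalating library, against 260.6 CPM in the nonescalating one, 1.67-fold lower (1.56 to 1.78), a call that ended with total reads. The calcium pump genes Atp2b1 and Atp2b2 had log2 ratios of -0.53 and -0.49 and were not called.

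Camk2a mRNA travels into dendrites, so other mRNAs known to be carried there were set beside it. Of 10 measured genes 4 were lower and 1 higher, with a median log2 ratio of -0.41 (-0.05 with total reads). Arc, the activity-regulated cytoskeletal protein, had 224 counts in the escalating library, against 637 in the nonescalating one and was 3.72-fold lower (3.19 to 4.35). The postsynaptic scaffold Shank1 was at 136 CPM in the escalating library, against 316 CPM in the nonescalating one, 2.33-fold lower (2.18 to 2.48). Shank3, a related scaffold, was at 158 and 342 CPM, 2.16-fold lower (2.04 to 2.30). These 3 calls held with total reads. Ddn, the gene of dendrin, named after its value was seen, was 1.56-fold lower, with 5432 counts in the escalating library, against 6461 in the nonescalating one. Reads of Camk2a per read of Shank3 were 9.15 (8.70 to 9.62) in the escalating library, against 9.04 (8.69 to 9.40) in the nonescalating one. Shank3 had a log2 ratio of -1.11, near the -1.10 of Camk2a, so this likeness restates those values. No other gene of the list was set against Camk2a in this way. Nrgn went the other way, as given above, and Map2, Dlg4, Grin1 and Fmr1 had log2 ratios of -0.31, -0.15, 0.07 and -0.14. The list is short and its genes were picked with earlier results of these libraries known.

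**Figure D4:**
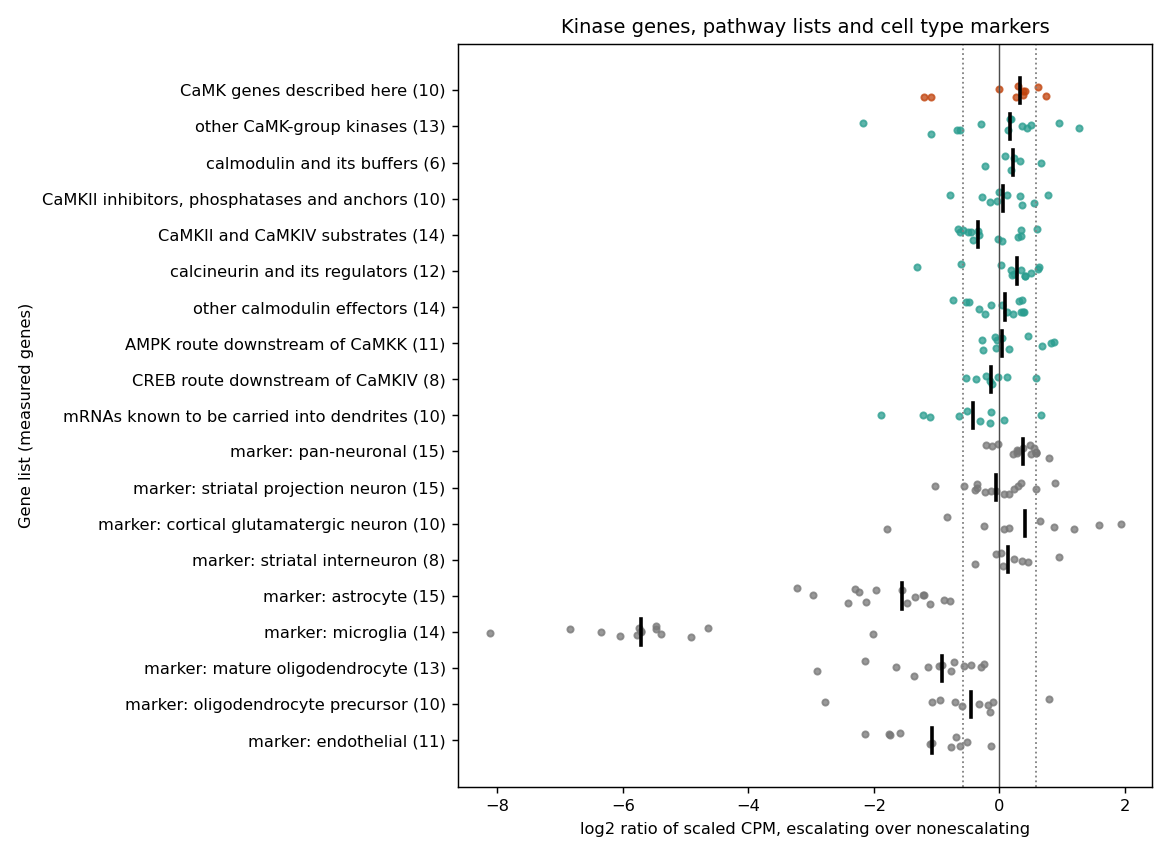
The log2 ratio, escalating over nonescalating with TMM scaling, of each measured gene (points) and the median (black bars) for the 10 CaMK genes (top), 9 pathway lists and 9 lists of cell type markers; dotted lines mark 1.5-fold. Camk2a and Camk1 lie left of the other CaMK genes at -1.10 and -1.21, between the pan-neuronal markers (median 0.37) and the microglia markers (median -5.71).

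The genes whose ratio was nearest to that of Camk2a were sought among 47 genes with a mean of at least 1133 CPM over the libraries. With 2 libraries the likeness is a distance between single log2 ratios. The nearest was Sptbn1, a spectrin of the membrane skeleton, at 964 CPM in the escalating library, against 2013 CPM in the nonescalating one, 0.03 from Camk2a on the log2 scale. Ank3, which encodes ankyrin-G of the axon initial segment, lay 0.20 away with 1108 and 2064 CPM. Itpr1, a calcium release channel of the endoplasmic reticulum, lay 0.36 away with 1099 and 1825 CPM. X57780 and AK142750, known here by sequence identifiers alone, lay 0.25 and 0.55 away. Of the 47 genes 10 were called lower, and 7 had a lower ratio than Camk2a.

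Cell type markers moved between the libraries as well. Markers of striatal projection neurons, the main cell type of the labelled tissue, were all measured (15 of 15) and summed to 8963 CPM in the escalating library, against 8013 CPM in the nonescalating one, with 1 higher, 1 lower and a median log2 ratio of -0.06. Pan-neuronal markers had 3 of 15 higher and 0 lower (median 0.37), with sums of 10670 and 8216 CPM. This median lies beside the ratios of Camk2b (0.37), Camk4 (0.38) and Camk1d (0.41). Markers of cortical glutamatergic neurons, which express much Camk2a, had 5 of 10 higher and 2 lower (median 0.41). Their sums were 199 CPM in the escalating library, against 280 CPM in the nonescalating one. Rorb, at 46.8 CPM in the escalating library, against 162 CPM in the nonescalating one, had a wider gap than the sum itself. The defining markers Slc17a7, Neurod6 and Tbr1 were higher, with 291, 67 and 139 counts in the escalating library, against 97, 13 and 35 in the nonescalating one, and Emx1 had 1 and 0 counts. Striatal interneuron markers had 1 of 8 higher and 0 lower. Astrocyte markers summed to 2771 CPM in the escalating library, against 17080 CPM in the nonescalating one (15 of 15 lower, median -1.55), and microglia markers to 36.1 and 1616 CPM (14 of 14 lower, median -5.71, with Trem2 at 0 counts in the escalating library). Mature oligodendrocyte, precursor and endothelial markers had 9 of 13, 4 of 10 and 9 of 11 lower, with 1 precursor marker higher. The part of these cell types, of the share of reads in no gene and of Malat1 in the lower level of Camk2a and Camk1 was not tested.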

How the data were processed

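Input RNA of dorsal striatum was sequenced as 1 escalating and 1 nonescalating library, and each library was assigned by its title. Per the submitters' processing notes, the authors used STAR 2.0.0e, HTSeq and build mm10; the sources used here do not give the HTSeq version, the strand setting or the annotation. Each deposited file lists unnormalised read counts by gene symbol. Reads that HTSeq gave to no gene stayed out of library sizes; assigned reads were 53.8% of those listed in the escalating library, against 55.3% in the nonescalating one.

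Library sizes were scaled with TMM factors from edgeR 4.0.16 (R 4.3.3), 1.13 for the escalating library and 0.882 for the other. Ratio and share intervals are exact Clopper-Pearson intervals and level intervals exact Poisson, at 95%. The sources used here name no molecular identifiers, so reads may not be independent molecules, and both intervals and floors hold counting error alone. A count of 0 allows up to 3 counts, or 0.277 CPM in the escalating library, against 0.363 CPM in the nonescalating one. Folds are ratios of CPM without a pseudocount. No count model was fitted, because 1 library per group leaves no replicate. The members, lists and rules were chosen with earlier results of these data known. The text names the 10 family genes, the 3 widest ratios of each pathway list, Calm2, Calm3, Camk2n1 and Camk2n2, and the 5 genes nearest to Camk2a; others are said to be named afterwards or serve as context, and a gene that the rule names is not reported here. Lengths and positions came from GENCODE M21 on the same build, which gave a length for 92.5% of measured genes. The calls were tested on simulated Poisson counts with known library sizes, which covers counting error alone. Alternatives were DESeq2 1.42.0 size factors, total reads, upper quartile factors, a pan-neuronal centre, and other pseudocounts, filters and thresholds. Python 3.11.15 with scipy 1.17.1 did the rest.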

Additional observations from a re-analysis of the deposited data

How the results depend on the processing

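The calls of Camk2a and Camk1 as lower held under all 9 alternatives. The looser filters and a looser threshold could not have removed them, and the family was chosen because Camk2a was lower. The log2 ratio of Camk2a was -0.73 with total reads, -1.03 with upper quartile factors and -1.46 with the pan-neuronal centre, against -1.10 in the main setting. The number of family genes called higher was 2 in the main setting, 7 with total reads, 0 with the pan-neuronal centre, 0 at a 2-fold threshold and 5 at a looser threshold (log2 ratio 0.32). Pathway genes called higher numbered 10 in the main setting, 32 with total reads, 1 with the pan-neuronal centre, 1 at 2-fold and 29 at the looser threshold; those called lower numbered 13, then 5, 33, 6 and 25 under the same settings. Over all measured genes 1140 were higher and 2091 lower, against 3850 and 1149 with total reads, 248 and 4052 with the pan-neuronal centre, 246 and 1091 at 2-fold, and 2461 and 3056 at the looser one. The share of Camk2a in CaMKII reads was 62.1% in the escalating library, against 81.4% in the nonescalating one per kilobase of merged exons, and 52.4% and 74.7% per kilobase of the longest coding transcript, so the gap between the libraries had the same sign on each basis. DESeq2 size factors, a pseudocount of 5 and the filters changed no call of the 10 genes. Among the 10 family genes Camk1 had the fewest counts, 32 in the escalating library, against 57 in the nonescalating one. No paired analysis was possible because each group has 1 library, and leaving out a library leaves nothing to compare.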

Other observations

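Neuronal calcium sensors and other calcium- or calmodulin-binding genes were gathered by symbol after the values of the kinases had been seen. Of 18 such genes 4 were called higher and 1 lower, beside 9.33% and 17.1% of all measured genes. Nothing is read from these counts. Hpca, the gene of the calcium sensor hippocalcin, was at 1552 CPM in the escalating library, against 920 CPM in the nonescalating one, 1.69-fold higher (1.64 to 1.73). Its relative Hpcal4 went the other way, at 656 and 1062 CPM, 1.62-fold lower (1.57 to 1.67). Cabp1 and Ncald, other calcium sensor genes, were 1.94-fold (1.54 to 2.46) and 1.57-fold higher (1.33 to 1.87), while Ncs1 and Vsnl1 had log2 ratios of -0.34 and 0.53 and were not called. The calmodulin-binding transcription activators Camta1 and Camta2 had log2 ratios of 0.31 and 0.04, and Camkmt, the methyltransferase of calmodulin, 0.04. With 1 library per group these values describe the libraries alone.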
